A study of Mus musculus with 19 samples.

Results

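The cytosolic ribosomal protein genes were the gene entries whose symbol has the form Rpl or Rps, with an optional p, then a number and an optional suffix (a, l or x, and a further digit), together with Rpsa. Of the 51826 gene entries in the liver table, 88 met this rule. Annotated copies whose symbol ends in -ps did not. The 88 comprised 43 genes of the large 60S subunit, 31 of the small 40S subunit, 3 P-stalk genes, 6 paralogs named after another ribosomal protein gene and 5 entries that the GENCODE annotation lists as pseudogenes.

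Liver RNA came from 19 female Balb/c mice of 12 weeks. These were 7 nulliparous mice (NUL), 6 at lactation day 10 (LAC) and 6 at involution day 6 (ID6), which is 6 days after the young were removed. No mouse carried a transgene or received a drug. The study bought Balb/c mice from more than one vendor, and the labels do not say which mouse came from which. Values are TPM (transcripts per 1000000 transcripts), which scale each gene by its length and each mouse to the same total, so that they can be compared between genes but keep no read depth. The depth is therefore unknown here and no counting interval is given. Of the labelled tissue's own markers, 9 of the 10 hepatocyte markers looked for were in the table and summed to at least 68178 TPM in every mouse.

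Ribosomal proteins and ribosomal RNA together form the ribosome, which translates mRNA into protein. The small subunit reads the mRNA and the large subunit joins the amino acids, while the P-stalk on the large subunit recruits the GTP-binding factors of elongation. Most mRNAs for these proteins begin with a C and a run of pyrimidines, the terminal oligopyrimidine (TOP) motif, through which mTORC1 and Larp1 control their translation. Liver makes plasma proteins at a high rate, and mouse liver grows in lactation and returns to its earlier size in involution. The share of ribosomal protein mRNA among liver transcripts at each stage is therefore the question addressed here.

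RefSeq start windows (GRCm38.p6) were at hand for 63 of the 88 genes. A C at the annotated start followed by 4 or more pyrimidines was present in 13 of these 63 genes (20.6%) and in 3.01% of all 27025 genes with such windows. The 4 windows below show this start in genes described in the results, each with 10 bases before and 20 bases from the annotated start, and the pyrimidine run in capitals. They lie at chr4:86857348-86857377 (minus strand) for Rps6, chr7:141447641-141447670 (plus) for Rplp2, chr3:90213629-90213658 (minus) for Rps27 and chr11:114668570-114668599 (plus) for Rpl38.
Rps6: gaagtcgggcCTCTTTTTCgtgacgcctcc
Rplp2: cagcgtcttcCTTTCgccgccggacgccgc
Rps27: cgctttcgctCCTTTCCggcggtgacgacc
Rpl38: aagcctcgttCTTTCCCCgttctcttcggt
In a wider search, a C followed by 4 pyrimidines could begin at the start or within 20 bases on either side of it. This was so in 51 of 63 members (81.0%), against 53.3% of all genes. Within the 300-base window, from 250 bases before to 50 bases after the start and on both strands, the letters CCGGAAG were found in 26 of 63 members (41.3%) and 9.93% of all genes, AAGATGG in 10 (15.9% against 7.28%), GGGCGG in 39 (61.9% against 38.2%), CACGTG in 6 (9.52% against 8.09%) and TATAAA in 7 (11.1% against 15.7%). These are matches of letters and not measured binding sites.

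The 88 genes together held between 3.33% and 4.24% of all transcripts in a liver. The range in nulliparous mice was 3.36% to 3.90% with a median of 3.79%. Lactating mice ran from 3.33% to 3.85% with a median of 3.56%. At involution day 6 the range was 3.94% to 4.24% with a median of 3.98%, so every involution mouse lay above every nulliparous and lactating mouse. With each mouse scaled by the median ratio of its genes to the mean over mice, the same sums were 3.33% to 4.06% in nulliparous, 3.49% to 4.25% in lactating and 3.53% to 4.03% in involution mice, and all 3 groups overlapped. The position of the involution mice thus rested on the scale. Across genes, levels ranged widely. The highest means over the 19 mice were 1653 TPM for Rplp1, 1527 TPM for Rps27 and 1285 TPM for Rpl13a. The lowest belonged to paralogs known chiefly from other tissues: Rpl10l (testis) was listed at 0 in every mouse, Rpl39l (testis) had a mean of 0.04 TPM and Rpl3l (heart and skeletal muscle) had 0.22 TPM. Rpl10l and Rpl39l fell under the minimum mean of 0.1 TPM for a test, which left 86 of the 88.

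**Figure D1:**
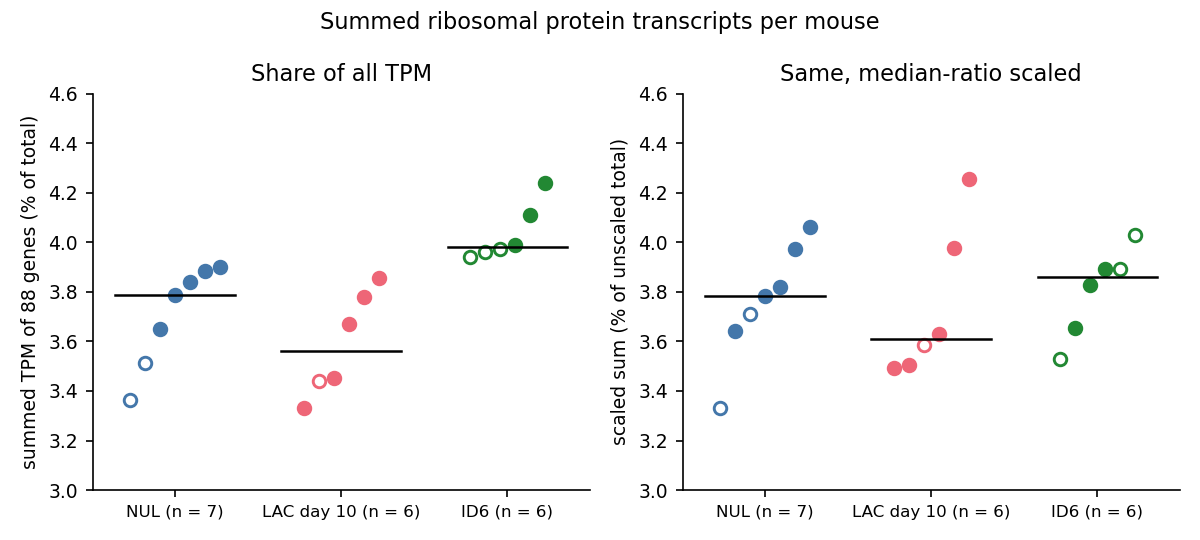
Summed TPM of the 88 ribosomal protein genes in each mouse as a percentage of all TPM (left) and after median-ratio scaling (right), by reproductive stage. Each point is a mouse, black lines are medians, open points mark the 6 libraries that stand apart as described in the text, and the vertical axes begin at 3%. On the left the 6 ID6 mice sit between 3.94% and 4.24%, above all others, and on the right the 3 groups overlap.

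Some libraries differed in ways the stages do not explain. The entry AC133183.1, which is no ribosomal protein gene, set 6 libraries apart. In these (NUL_227, NUL_4, LAC_213, ID6_201, ID6_209 and ID6_216, named by stage and animal number) it was at 0 to 0.67 TPM, against 4.70 to 48.3 TPM in the other 13, and the mitochondrial gene mt-Nd3 was at 1964 to 3101 TPM against 3703 to 5908 TPM. These 6 are called the libraries apart below. Involution holds 3 of them, nulliparous mice 2 and lactation 1. Animal numbers under 200 belong only to 3 nulliparous and 3 lactating mice, so all 6 involution mice are numbered 200 or above. Neither division is a batch named by the authors.

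The divide between libraries was visible in individual ribosomal protein genes. Without any test, 5 of the 86 genes were lower in all 6 libraries apart than in all other libraries, beside 0.185% of all 16230 genes tested, and 5 were higher in all 6, beside 0.234%. Rpl29 ranged from 25.1 to 37.8 TPM in the libraries apart and from 62.2 to 85.0 TPM in the others. Rpl27 ranged from 254 to 289 TPM against 428 to 500 TPM. Rps27 ranged from 801 to 1220 TPM against 1252 to 2163 TPM. Rpl17 ranged from 328 to 379 TPM against 397 to 497 TPM. In the opposite direction, Rps20 had 230 to 294 TPM in the libraries apart against 164 to 204 TPM, Rpl23 had 348 to 439 TPM against 270 to 328 TPM, and Rpsa, which also serves as a laminin receptor at the cell surface, had 428.1 to 494 TPM against 349 to 427.6 TPM. Rpl21 (81.3 to 112 TPM against 57.4 to 71.5 TPM) and Rps2 (13.5 to 24.4 TPM against 8.42 to 13.5 TPM) were also higher. The values of Rps2 touch at this rounding, with 13.54 TPM as the lowest in the libraries apart and 13.47 TPM as the highest elsewhere. Whatever stage a mouse belonged to, these 10 genes followed the library set, which is a description of libraries and not of reproductive stage.

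**Figure D2:**
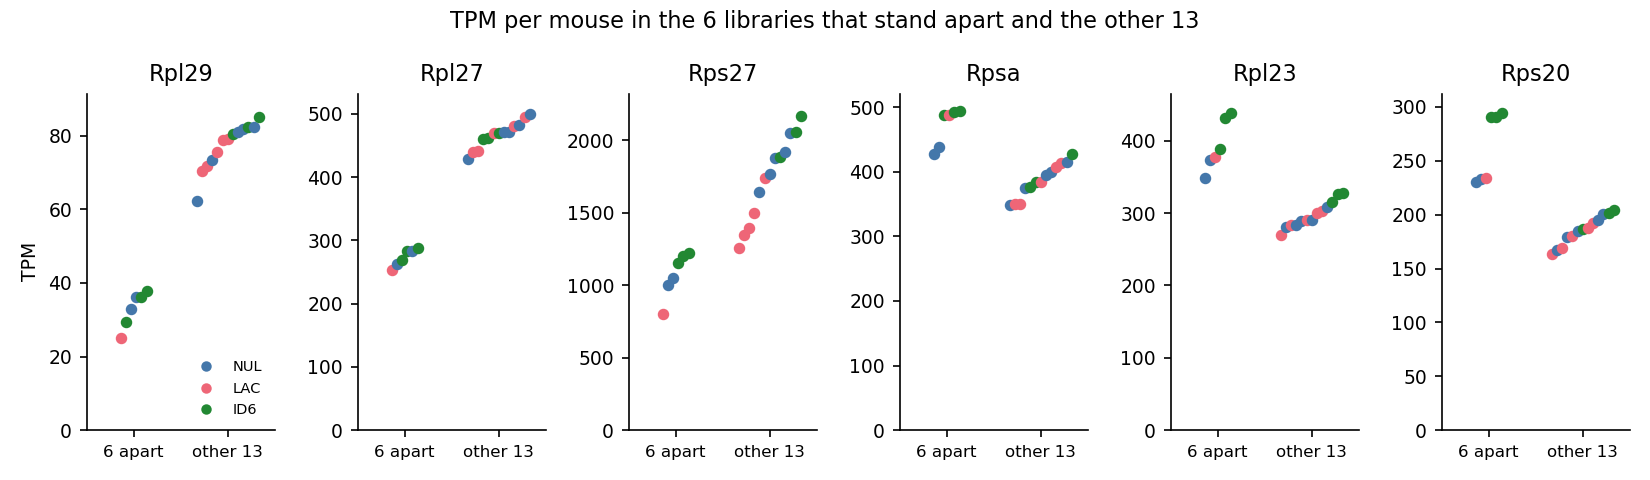
TPM of 6 ribosomal protein genes in the 6 libraries apart and in the other 13, each point a mouse coloured by stage, each panel with its own vertical axis from 0. Rpl29, Rpl27 and Rps27 are lower and Rpsa, Rpl23 and Rps20 higher in the libraries apart, with no overlap in any panel and all 3 stages on both sides.

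A second property of the data bears on single genes. RSEM divides reads that fit several sequences, and 68 of the 88 genes had at least 1 annotated entry whose transcript was at least 98% identical over at least 80% of its length. There were 224 such entries, mostly processed pseudogenes, and 72 had a mean of at least 1 TPM. They held 13.8% to 16.1% of the TPM of genes and copies combined in a mouse. In 8 families the copies held over 50%. For Rps2, a protein of the decoding subunit, the gene had a mean of 13.3 TPM and its 9 copies 1449 TPM, nearly all in Rps2-ps10 (1447 TPM), so that 99.1% of the family was assigned away from the gene. The other 7 were Rpl29 (85.8%), Rps18 (85.8%), Rpl30 (83.7%), Rpl26 (80.6%), Rpl21 (80.5%), Rpl35a (65.2%) and Rplp0 (60.4%). Copies also held 49.2% of the Rpl5 family, 45.6% for Rpl3 and 38.5% for Rpl41. Rpl22 had no copy by this measure, and copies held 0.930% for Rpl22l1, 0.125% for Rps25, 0.148% for Rps4x and 2.15% for Rpl11. The 88 genes were not searched against each other, and each copy was counted for 1 gene only. Members named alike, such as Rps3a1 (mean 365 TPM) and the annotated pseudogene Rps3a2 (134 TPM), could therefore not count as copies of each other.

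How little separates gene from copy is shown by coding windows of 30 bases (GENCODE M21 transcripts on GRCm38), in which the differing base is in capitals and positions count from 1 at the 5′ end of the gene's transcript in the alignment. Rps18, in exon 3 at chr17:33952494-33952523 (minus strand), and Gm10260 at chr13:97760389-97760418 (minus) differ in this window by T243C. Rpl30, in exon 3 at chr15:34442692-34442721 (minus), and Gm12191 at chr11:49678948-49678977 (minus) differ by G584A. Rpl35a, in exon 3 at chr16:33057513-33057542 (plus), and Gm10243 at chr6:48523652-48523681 (plus) differ by G288A. Rpl29, in exon 2 at chr9:106430327-106430356 (plus), and Gm8210 at chr1:43189212-43189241 (plus) differ by C495A.
Rps18: agaactcacggaggaTgaggtggagcgagt
Gm10260: agaactcacggaggaCgaggtggagcgagt
Rpl30: cgtgctgggctacaaGcagactctgaagat
Gm12191: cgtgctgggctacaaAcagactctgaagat
Rpl35a: gagatgtgcttatgtgtataaGgcaaaaaa
Gm10243: gagatgtgcttatgtgtataaAgcaaaaaa
Rpl29: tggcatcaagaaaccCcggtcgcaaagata
Gm8210: tggcatcaagaaaccAcggtcgcaaagata
Over the whole alignment Rps18 and Gm10260 differed at 5 of 545 bases, Rpl30 and Gm12191 at 1 of 348, Rpl35a and Gm10243 at 1 of 333 and Rpl29 and Gm8210 at 2 of 422. A read that lies within the alignment and covers none of these bases fits both sequences. The levels of these genes are therefore uncertain as gene levels. Summing gene and copies brought Rpl21 and Rps2 into overlap between the library sets (339 to 460 TPM against 307 to 436 TPM for the Rpl21 family), whereas the Rpl27 family (337 to 388 TPM against 510 to 617 TPM) and the Rpl29 family (324 to 385 TPM against 423 to 510 TPM) still did not overlap. Rpl38 changed the other way: the gene overlapped, but its family did not (466 to 556 TPM in the libraries apart against 571 to 726 TPM).

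**Figure D3:**
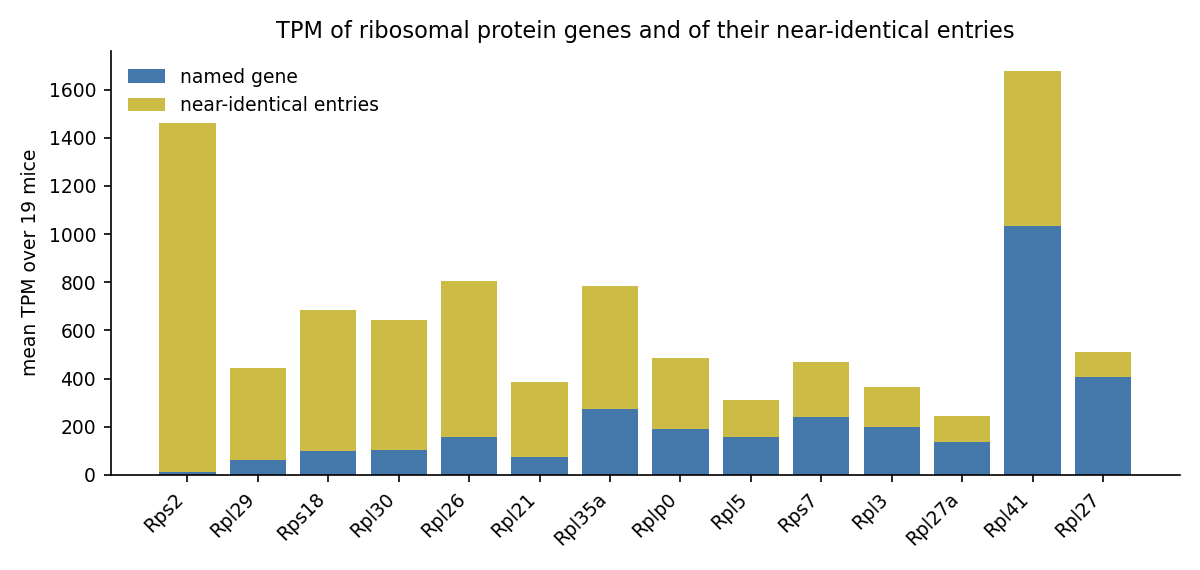
Mean TPM over 19 mice of the 14 ribosomal protein genes with over 10% of their family TPM in near-identical entries, as stacked bars of the named gene (blue) and the near-identical entries (yellow), ordered by the share in the entries. The bar of Rps2 is almost wholly yellow (13.3 TPM in the gene against 1449 TPM in 9 entries).

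Lactation was compared with the nulliparous state to ask whether growth of the liver goes with a larger share of ribosomal protein mRNA. TPM gives shares, so the amount per cell or per liver was not measured. No ribosomal protein gene was higher at lactation day 10 by limma with an adjusted p under 0.05 (0 of 86, beside 2.72% of all genes), and 2 were lower (beside 6.49% of all genes). At an unadjusted p under 0.05, 7 of the 86 passed in either direction, beside 23.1% of all genes. The median log2 change over the 86 genes was -0.04 and over all genes -0.03. The pair that fell were Rpl37a of the large subunit and Rps25 of the small subunit, a protein used by some viral internal ribosome entry sites. Rpl37a (chr1:72711290-72713813) lay between 495 and 556 TPM (median 541) in nulliparous mice and between 422 and 518 TPM (median 493) in lactating mice, a log2 change of -0.18 (SE 0.06, adjusted p = 0.0494). Rps25 (chr9:44407139-44410427) lay between 632 and 713 TPM (median 685) and between 585 and 634 TPM (median 605), a log2 change of -0.15 (SE 0.05, adjusted p = 0.0469). In both genes the groups overlapped, and no member had groups that did not, beside 0.980% of all genes for higher and 2.29% for lower values. Neither call held under median-ratio scaling, where 0 members passed in either direction (beside 4.08% of all genes higher and 5.17% lower). Quantile normalization (beside 4.19% and 5.02%) and the mice numbered 200 or above (beside 2.65% and 4.48%) also gave 0. With the libraries apart left out, 0 were higher (beside 1.78%) and 3 lower (beside 4.22%), namely Rpl21, Rps21 and Rps27, so neither Rpl37a nor Rps25 was among them. With the library set as a covariate 0 were higher (beside 2.80%) and 6 lower (beside 7.51%), and with copies summed 0 were higher (beside 2.76%) and 1 lower (beside 6.61%). A test of the interaction in limma called no member for a lactation effect that differed between the ranges of animal number (0 of 86 genes at an adjusted p under 0.05, beside 0.0494% of all genes higher and 0.0618% lower, and 4 at an unadjusted p under 0.05, which 13.2% of all genes reached). With 3 or 4 mice per stage and range, this test could have missed a difference.

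Involution was compared with lactation to ask what happens to these mRNAs once milk production has ended. By limma, 34 of 86 genes (39.5%) were higher at involution day 6, beside 18.1% of all genes tested, and 0 were lower, beside 4.73%. The median log2 change was 0.17 over the ribosomal protein genes and 0.10 over all genes, and 76 of 86 changes were positive. At an unadjusted p under 0.05, 47 of the 86 passed in either direction, beside 35.2% of all genes. No tested member reached a log2 change of 1 in any comparison. An adjusted p under 0.05 with a log2 change of at least 1 was met by 0.746% of all genes between lactating and nulliparous mice, 1.93% between involution and lactation, 0.253% between involution and nulliparous mice, 1.95% between the ranges of animal number and 0.0804% in the interaction. By role, 19 of 43 genes of the large subunit, 12 of 31 of the small subunit, 1 of 3 P-stalk genes, 2 of 5 annotated pseudogenes and 0 of 4 tested paralogs were higher. In 11 genes every involution mouse lay above every lactating mouse, beside 9.30% of all genes, and in 0 every involution mouse lay below, beside 2.16%.

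This count depended on how the mice were scaled. Median-ratio scaling moved the median log2 change of all genes from 0.10 to 0.01 and that of the ribosomal protein genes from 0.17 to 0.03. It left 1 gene higher (Rpl22, beside 8.82% of all genes) and 1 lower (Rpl22l1, beside 7.57%). Quantile normalization gave 17 higher (beside 9.93%), all among the 34, and 1 lower (Rpl22l1, beside 7.60%). On the TPM scale a rise is a larger share of the liver's transcripts. With median-ratio scaling, which sets each mouse by the middle of its genes, it passed for Rpl22 alone among the 86. Quantile normalization, which gives every mouse the same distribution of values, kept 17, so these scalings differed. With the 6 libraries apart left out, 19 genes were higher (beside 12.6% of all genes), of which 12 were among the 34, and 0 lower (beside 2.35%). Among mice numbered 200 or above, which hold all 6 involution but only 3 lactating mice, 8 of 85 were higher (beside 10.5%) and 0 lower (beside 3.58%). With the library set as a covariate 50 were higher (beside 18.0%) and 0 lower (beside 3.93%), and with copies summed 37 were higher (beside 18.2%) and 0 lower (beside 4.76%). Leaving out each mouse in turn gave 25 to 39 higher, and the shares of all genes in these fits are not given here.

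**Figure D4:**
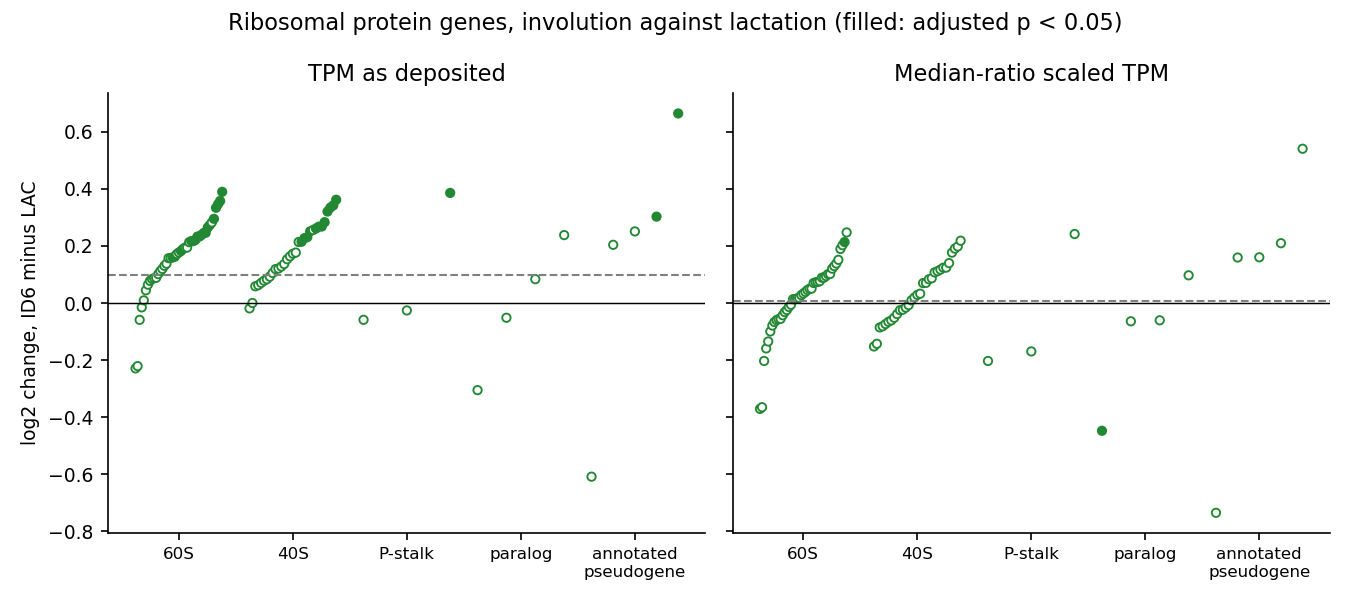
Log2 change of each of the 86 tested ribosomal protein genes from lactation to involution, by role, on TPM as deposited (left) and on median-ratio scaled TPM (right). Filled points passed an adjusted p under 0.05 in limma, points are ordered by value within a role and the dashed line is the median of all genes tested. On the left 34 points are filled, all above 0, and on the right Rpl22 and Rpl22l1 are the filled points.

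Rpl22 stood out among the members. It encodes an RNA-binding protein of the large subunit that is not needed for protein synthesis as such, and it is at chr4:152325742-152334071 on the plus strand. Rpl22 ranged from 306 to 351 TPM in nulliparous mice (median 337), from 284 to 326 TPM in lactating mice (median 308) and from 367 to 408 TPM in involution mice (median 400.4). The involution mice lay above all others. The log2 change from lactation to involution was 0.36 (SE 0.05, adjusted p = 4.88e-05, limma), and from nulliparous to involution 0.25 (SE 0.05, adjusted p = 0.00881). The rise from lactation passed in all 32 alternatives run, with log2 changes of 0.21 to 0.38. Under median-ratio scaling it was 0.21 (adjusted p = 0.0393), without the libraries apart 0.35 (adjusted p = 0.0036) and among mice numbered 200 or above 0.35 (adjusted p = 0.0023). Relative to nulliparous mice, it passed in 29 of 32 alternatives but not under median-ratio scaling (0.14, adjusted p = 0.233), without the libraries apart (0.22, adjusted p = 0.166) or among mice numbered 200 or above (0.27, adjusted p = 0.0539).

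Rpl22l1, the paralog that can take the place of Rpl22 in the ribosome, had the opposite sign. Rpl22 protein is known to bind and lower the Rpl22l1 mRNA in mice. Rpl22l1 (chr3:28805436-28807424, plus strand) ranged from 86.9 to 115 TPM in nulliparous mice (median 106), from 77.0 to 101 TPM in lactating mice (median 93.2) and from 49.6 to 91.4 TPM in involution mice (median 74.0), so the groups overlapped, with mouse ID6_232 lowest at 49.6 TPM. From nulliparous to involution the log2 change was -0.48 (SE 0.11, adjusted p = 0.0261, limma). It was the only fall that passed among the 86 genes in that comparison, beside 0.912% of all genes. From lactation to involution the change was -0.31 (SE 0.12, adjusted p = 0.0703), which did not pass. Median-ratio scaling gave -0.45 (adjusted p = 0.0274) for the latter and -0.59 (adjusted p = 0.0278) for the former. The fall from nulliparous mice passed in 26 of 32 alternatives. It did not pass without the libraries apart (-0.53, adjusted p = 0.192), among mice numbered 200 or above (-0.42, adjusted p = 0.220), with the range of animal number as a covariate (-0.43, adjusted p = 0.0833) or without NUL_1 (-0.47, adjusted p = 0.0558), NUL_13 (-0.46, adjusted p = 0.0624) or ID6_209 (-0.48, adjusted p = 0.0531). For every 100 TPM of Rpl22, Rpl22l1 had 25.4 to 34.6 TPM in nulliparous mice (median 32.9), 26.4 to 33.2 TPM in lactating mice (median 29.1) and 12.5 to 22.6 TPM in involution mice (median 19.2). This ratio, which does not depend on scaling, separated involution from both other stages without overlap. Since it was looked at after each gene's change was known, no test of it is given. Across mice within a stage the pair did not move against each other: the Pearson r of log2 values with stage means removed was 0.16 on TPM and 0.50 after median-ratio scaling over the 19 mice, a description of values that share a scale within a mouse.

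**Figure D5:**
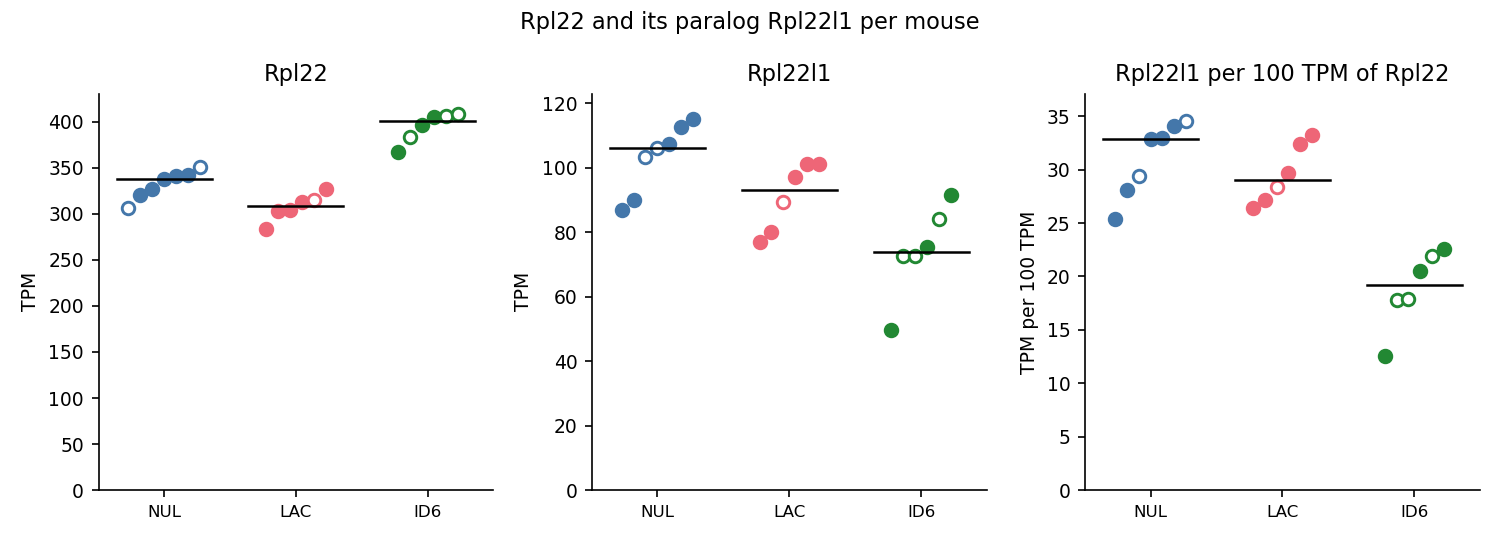
TPM of Rpl22 and of Rpl22l1, and TPM of Rpl22l1 per 100 TPM of Rpl22, in each mouse by stage, with black lines at the medians and open points for the 6 libraries apart. All vertical axes start at 0. Rpl22 in ID6 (367 to 408 TPM) lies above the other stages and the ratio (12.5 to 22.6) below them.

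In the small subunit, Rps23 had the smallest adjusted p (log2 change 0.27, adjusted p = 0.000261, limma), a gene singled out after its values were seen, followed by Rps4x and Rps25. Rps25 went from 585 to 634 TPM in lactation to 713 to 735 TPM (median 728) in involution, with no overlap and a log2 change of 0.25 (SE 0.05, adjusted p = 0.000785, limma). Rps4x, the X-linked form of a core protein (chrX:102184941-102189394), went from 328 to 389 TPM (median 371) to 421 to 487 TPM (median 449), also with no overlap, and its log2 change was 0.32 (SE 0.06, adjusted p = 0.00073). Both passed without the libraries apart and among mice numbered 200 or above, and in 31 of 32 alternatives, the exception being median-ratio scaling. Rps12 (425 to 547 TPM in lactation against 551 to 694 TPM in involution) did not overlap either, with a log2 change of 0.34 (SE 0.08, adjusted p = 0.00364). Rps12 did not pass without the libraries apart (0.26, adjusted p = 0.0533), among mice numbered 200 or above (0.26, adjusted p = 0.0566) or with median-ratio scaling (0.20, adjusted p = 0.107).

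Rps6, the small subunit protein that S6 kinase phosphorylates when mTORC1 is active, needs its own account. It ranged from 475 to 586 TPM in nulliparous mice (median 548), 501 to 627 TPM in lactating mice (median 579) and 617 to 703 TPM in involution mice (median 662). The log2 change was 0.23 from lactation (SE 0.07, adjusted p = 0.0325) and 0.33 from nulliparous mice (SE 0.07, adjusted p = 0.0188, limma). Rps6 also followed the animal numbers. Nulliparous mice numbered 200 or above had 548 to 586 TPM and the others 475 to 483 TPM, and lactating mice 610 to 627 TPM and 501 to 547 TPM. Beside the higher-numbered lactating mice the involution mice overlap at their lower end, and the change among mice numbered 200 or above was 0.10 (adjusted p = 0.287). Rps3, which also acts in DNA repair, had a log2 change of 0.12 (SE 0.06, adjusted p = 0.171) and Rpsa 0.15 (SE 0.09, adjusted p = 0.242). Rps27a, which makes ubiquitin fused to a ribosomal protein, rose from 361 to 496 TPM (median 424) to 463 to 553 TPM (median 507), with overlapping groups and a log2 change of 0.27 (SE 0.07, adjusted p = 0.00994). In the same 3 settings Rps27a had 0.23 (adjusted p = 0.0534), 0.16 (adjusted p = 0.175) and 0.12 (adjusted p = 0.375).

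In the large subunit, Rpl13a rose from 1079 to 1303 TPM (median 1141) in lactation to 1329 to 1676 TPM (median 1459) in involution, with no overlap and a log2 change of 0.33 (SE 0.07, adjusted p = 0.0013, limma). It did not pass without the libraries apart (0.25, adjusted p = 0.0546), among mice numbered 200 or above (0.23, adjusted p = 0.0561) or with median-ratio scaling (0.19, adjusted p = 0.0953). Rpl10, an X-linked gene whose protein joins last in subunit maturation, rose from 1035 to 1246 TPM to 1283 to 1448 TPM, with no overlap and a log2 change of 0.26 (SE 0.08, adjusted p = 0.0171). Rpl37a, which had fallen in lactation, rose from 422 to 518 TPM to 541 to 589 TPM (log2 change 0.24, SE 0.06, adjusted p = 0.00549). Rpl5 and Rpl11 carry the ribosomal RNA of the central protuberance and bind Mdm2 when ribosome assembly is disturbed. Their log2 changes were 0.22 (SE 0.08, adjusted p = 0.0481) and 0.23 (SE 0.07, adjusted p = 0.0168), and in both genes the groups overlapped. Rpl5 passed in 11 of 32 alternatives and Rpl11 in 28. Without the libraries apart they had an adjusted p of 0.181 and 0.110, and among mice numbered 200 or above 0.400 and 0.196. Rpl3 (0.30, adjusted p = 0.0112) and Rpl7 (0.25, adjusted p = 0.0124) also rose. Among mice numbered 200 or above, Rpl10 (adjusted p = 0.0640), Rpl3 (adjusted p = 0.201) and Rpl7 (adjusted p = 0.199) did not pass, and without the libraries apart Rpl37a (adjusted p = 0.0551) and Rpl7 (adjusted p = 0.0570) did not. Rpl41 (0.19, adjusted p = 0.13), Rpl39 (0.06, adjusted p = 0.438) and Rpl38 (-0.06, adjusted p = 0.781) did not pass. The largest change in the large subunit was in Rpl21, from 57.4 to 87.3 TPM to 66.9 to 112 TPM (log2 change 0.39, SE 0.13, adjusted p = 0.0422). Rpl21 is among the genes divided with near-identical copies and among those that follow the library set. With its copies summed the change was 0.30 (adjusted p = 0.000777), and without the libraries apart 0.17 (adjusted p = 0.0552). Rps20, also in that set, went from 0.36 (adjusted p = 0.045) to 0.15 (adjusted p = 0.2) without the libraries apart.

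Of the P-stalk genes, Rplp2 alone passed. It had 274 to 409 TPM (median 318) in lactation and 338 to 516 TPM (median 428) in involution, with overlap and a log2 change of 0.39 (SE 0.12, adjusted p = 0.0224, limma). Without the libraries apart the change was 0.28 (adjusted p = 0.0685). Rplp1, whose protein pairs with that of Rplp2, stayed between 1518 and 1973 TPM in lactation and 1528 and 1819 TPM in involution (log2 change -0.06, SE 0.08, adjusted p = 0.636). Rplp0, the stalk base, had a log2 change of -0.03 (SE 0.10, adjusted p = 0.878). Whether the members of the stalk differ from each other was not tested.

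Among the remaining paralogs, Rps27l, a p53 target, had 498 to 601 TPM in lactation and 499.8 to 669 TPM in involution (log2 change 0.08, SE 0.09, adjusted p = 0.553). It was abundant for a paralog, with 30.1 to 43.4 TPM for every 100 TPM of Rps27 in involution, 30.2 to 62.2 TPM in lactation and 29.1 to 54.4 TPM in nulliparous mice. This ratio followed the library set, as Rps27 did. It was 43.1 to 62.2 TPM in the libraries apart and 29.1 to 42.1 TPM in the others, without overlap. Rpl7l1, a factor of large subunit assembly, had a log2 change of 0.24 (SE 0.11, adjusted p = 0.128). Rpl3l stayed at or under 0.25 TPM in all lactating and involution mice and reached 2.14 TPM in a nulliparous mouse. Of the entries annotated as pseudogenes, Rps12l1 rose from 3.35 to 5.44 TPM to 4.41 to 12.9 TPM (log2 change 0.66, SE 0.20, adjusted p = 0.0226) and Rps3a2 from 107 to 159 TPM to 137 to 173 TPM (log2 change 0.30, SE 0.09, adjusted p = 0.0167), both with overlap. Reads shared between these entries and other members were not examined. Rps4l had a log2 change of -0.61 (SE 0.28, adjusted p = 0.129).

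Involution was also compared with the nulliparous state. This comparison shares the involution mice with the one above, so the counts are not independent. Here 17 genes were higher, beside 3.44% of all genes, and 1 was lower (Rpl22l1). The median log2 change was 0.13 over the ribosomal protein genes and 0.07 over all genes. The 17 comprised 9 genes of the large subunit, 7 of the small subunit and the annotated pseudogene Rps3a2. The largest were Rps3a1 (295 to 398 TPM in nulliparous and 375 to 462 TPM in involution mice), with a log2 change of 0.33 (SE 0.08, adjusted p = 0.024), and Rps6. Rpl5, Rps3a2 and Rps12 had changes of 0.30 (adjusted p = 0.0297), 0.30 (adjusted p = 0.0488) and 0.28 (adjusted p = 0.0418). At an unadjusted p under 0.05, 40 of the 86 passed, beside 25.1% of all genes. In 10 genes every involution mouse lay above every nulliparous mouse, beside 1.84% of all genes, and in 0 below, beside 0.542%. Median-ratio scaling left 0 higher (beside 1.07%) and 1 lower (beside 1.35%), and quantile normalization 5 higher (beside 1.32%) and 1 lower (beside 1.29%). Without the libraries apart 0 of 86 were higher (beside 0.0737%) and 0 lower (beside 0.0676%). Among mice numbered 200 or above 0 of 85 were higher (beside 0.473%) and 0 lower (beside 0.324%). With the library set as a covariate 23 were higher (beside 3.28%) and 1 lower (beside 0.715%), and with copies summed 19 were higher (beside 3.48%) and 1 lower (beside 0.919%). The count was 3 without mouse NUL_1 or ID6_209, 4 without NUL_13, ID6_201 or ID6_216, 6 without ID6_232, 7 without NUL_4 and 10 without ID6_230. It thus moved with single mice. The shares of all genes in these fits are not given here, so the losses are not read as particular to the members.

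The range of animal number was tested within the nulliparous and lactating mice, with stage as a term. Mice numbered 200 or above were higher in 7 of 86 genes (beside 16.4% of all genes) and lower in 2 (beside 9.14%). At an unadjusted p under 0.05, 17 passed, beside 37.2%. Median-ratio scaling gave 2 higher (beside 11.5%) and 4 lower (beside 12.4%), quantile normalization 16 (beside 13.7%) and 1 (beside 11.1%), leaving out the libraries apart 3 (beside 9.64%) and 0 (beside 6.07%), the library set as a covariate 9 (beside 17.1%) and 4 (beside 9.25%), and copies summed 8 (beside 16.6%) and 2 (beside 9.24%). Rpl7l1 had the largest rise. Nulliparous mice numbered 200 or above had 34.8 to 43.2 TPM and the others 28.5 to 32.9 TPM, and lactating mice 41.2 to 44.0 TPM and 28.9 to 34.7 TPM, so that the ranges were apart at both stages (log2 change 0.36, SE 0.06, adjusted p = 0.00138, limma). For Rps6 the log2 change was 0.25 (SE 0.04, adjusted p = 0.00078). Both passed in all 23 alternatives. Rplp2 (0.29, adjusted p = 0.0146), Rpl10, Rpl23a, Rps12 and Rpl4 made up the rest. Those that were lower were Rps4l (an annotated pseudogene) with a log2 change of -0.78 (SE 0.23, adjusted p = 0.0267), and Rpl28, with -0.24 (SE 0.07, adjusted p = 0.0275). Lactating mice under 200 had 7.93 to 21.2 TPM of Rps4l and the others 5.68 to 10.1 TPM. Because involution has no mouse under 200, stage and range cannot be told apart where it is compared with lower-numbered mice.

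Genes that work with the ribosome were read from lists by function. From lactation to involution, 18.1% of all genes were higher and 4.73% lower on TPM, and 8.82% and 7.57% after median-ratio scaling, and the counts below stand beside these shares. Rack1, a ribosomal protein that the symbol rule does not reach, had a log2 change of 0.18 from lactation to involution (SE 0.07, adjusted p = 0.0595, limma), which did not pass. From nulliparous mice to involution it rose (0.26, adjusted p = 0.0340). Of 13 elongation factor and other TOP mRNAs, 9 were higher and 0 lower from lactation to involution, with a median log2 change of 0.27. These included Eif4b (0.53), Nap1l1 (0.53) and Npm1 (0.52), and median-ratio scaling left 2 higher. Of 34 initiation factors 9 were higher and 0 lower, led by Eif3f (0.54), and scaling left 1 higher and 1 lower. Of 50 ribosome biogenesis genes 8 were higher, with Ubtf, a factor for rRNA gene transcription, at 0.53, and 1 (Nhp2, -0.25) was lower, so the share that was higher lay below that of all genes. By range of animal number 27 of these 50 were higher and 0 lower, beside 16.4% and 9.14% of all genes.

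Of 24 genes of mTORC1 and TOP control, 2 were higher and 0 lower in lactation than in nulliparous mice, beside 2.72% and 6.49% of all genes: Eif4ebp3, a repressor of cap-dependent initiation, with a log2 change of 2.43 (SE 0.22, adjusted p = 4.03e-06, limma), and Ddit4, an inhibitor of mTORC1 induced by stress and glucocorticoids, with 1.45 (SE 0.23, adjusted p = 0.000548). From lactation to involution the changes were -2.74 (adjusted p = 4.19e-07) and -1.24 (adjusted p = 0.000987), and Pdcd4, an inhibitor of the helicase Eif4a, fell by 0.33 (adjusted p = 0.0271). Akt1s1 (0.25) and Deptor (0.35) rose, which made 2 higher and 3 lower of 24. The comparisons share the lactating mice.

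Other lists are given for the same comparison, from lactation to involution. Of 78 mitochondrial ribosomal proteins, which translate the mitochondrial genome, 11 were higher and 1 lower on TPM, a smaller share than the 18.1% and 4.73% of all genes. After median-ratio scaling 2 were higher and 6 lower, beside 8.82% and 7.57%. Of 76 nuclear subunits of the respiratory chain 3 were higher and 0 lower on TPM, again smaller shares than those of all genes, and 0 higher and 8 lower after scaling. Of 38 proteasome subunits 8 were higher and 0 lower on TPM, with the immunoproteasome subunits Psmb8 (0.98), Psmb10 (0.87) and Psmb9 (0.49) at the top, and 2 higher and 0 lower after scaling. Of 8 proliferation genes 0 were higher and 5 lower, both on TPM and after scaling.

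Markers of other cells moved with stage beside these results. From lactation to involution, 8 of 8 Kupffer cell markers and 12 of 13 leukocyte markers were higher, and so were 4 of 6 endothelial and 3 of 6 stellate markers, while the 5 tested erythroid markers were lower. Summed leukocyte markers ranged from 47.6 to 78.2 TPM in lactation and 164 to 195 TPM in involution, and summed Kupffer markers from 134 to 264.5 TPM and 434 to 589 TPM. In nulliparous mice these sums were 73.7 to 142 TPM and 199 to 377 TPM. Summed erythroid markers ranged from 1144 to 2408 TPM in nulliparous, 1331 to 3337 TPM in lactating and 197 to 847 TPM in involution mice. Summed hepatocyte markers ranged from 68178 to 102995 TPM in nulliparous, 108466 to 159413 TPM in lactating and 88455 to 119989 TPM in involution mice. For cholangiocyte markers the sums were 33.0 to 47.7 TPM, 19.4 to 29.6 TPM and 29.4 to 39.8 TPM in the same order. Transcripts of the mitochondrial genome made up 10.2% to 14.6% of TPM in lactation and 7.98% to 11.3% in involution. The part of these cells and transcripts in the changes of the ribosomal protein genes was not tested, and in whole liver more cells of a type and more RNA per cell cannot be told apart.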

How the data were processed

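Liver RNA of 19 mice was sequenced by the authors as poly(A) RNA in paired-end reads. The authors' deposited table holds TPM values (transcripts per 1000000) per gene, made with RSEM 1.3.1 per the submitters' processing notes, on GRCm38 with Ensembl 89 annotation. TPM keeps no depth, so counting error is unknown, and a count test such as the study's own was replaced by limma. Each sample is a separate animal. No 2 of the libraries held identical values, and 0 other columns were left unused.

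log2(TPM + 1) was fitted with limma 3.58.1 (trend) in R 4.3.3 for 16230 genes whose mean TPM reached 0.1, and the 3 stages shared an estimate of the spread. The range of animal number was fitted within the 13 nulliparous and lactating mice. Calls required a p of under 0.05 after Benjamini-Hochberg adjustment across every tested gene. Fold changes on this scale understate low genes. The script was tested on simulated data. Near-identical entries were found with BLAST+ 2.17.0 among entries outside the members. Summaries used Python 3.11.15, pandas 2.3.3 and matplotlib 3.10.9. Gene models, roles of pseudogene entries and windows came from GENCODE M21 and RefSeq.

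Named genes were up to 5 members per direction and comparison with the largest called change, a set of members chosen by role, the 3 highest and 3 lowest means, and up to 3 called genes per list and direction. The members and lists were chosen with earlier results of these data known. Alternatives were other pseudocounts, filters, scalings, robust moderation, fits on the groups compared, the animal-number range and each mouse left out. Chosen after seeing the data were leaving out the libraries apart, the library set as a covariate and copies summed, as well as the search for pyrimidine runs near the start. Some genes that were measured are not reported here.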

Additional observations from a re-analysis of the deposited data

Results flagged for a closer look

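In 111 groups of 6 or 7 mice (36 named members and the summed share, at 3 stages), 3 held a mouse far from its group by Dixon's test, and chance marks about 1 in 20 groups. Rplp0 was at 132.3 TPM in NUL_4, with the nearest nulliparous mouse at 172 TPM. Rpl3 was at 227.86 TPM in NUL_227, with the nearest at 196.57 TPM. Rpl21 was at 87.29 TPM in LAC_213, with the nearest lactating mouse at 62.6 TPM. All 3 mice belong to the 6 libraries apart, and copies hold 60.4%, 45.6% and 80.5% of these 3 families. The part of either in these values was not tested.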

How the results depend on the processing

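No paired analysis was possible because the animal numbers are not shared between stages. For single named genes, none of the 1208 alternative values of called changes turned sign, whereas 169 of the 2831 of changes that were not called did, 29 of them with median-ratio scaling (such as Rps27l from lactation to involution, 0.08 to -0.06). Across these values 345 lost a call and 31 gained one, and the causes were not tested. For the counts of members below, no share of all genes is given with other pseudocounts, without a filter or in a fit on the 2 groups compared. The same holds with the range as a covariate and with each mouse left out. Changes of those counts are not read as particular to the members. From nulliparous to lactating mice, the 2 members that were lower became 0 with a pseudocount of 0.1, in a fit on the 2 groups compared, with median-ratio scaling, with quantile normalization, among mice numbered 200 or above and with a log2 change of at least 1. They became 1 with a pseudocount of 0.5, without a filter and with copies summed, and 3 with the range of animal number as a covariate or without the libraries apart, and 6 with the library set as a covariate. Leaving out each mouse gave 0 to 2. From lactation to involution, the 34 that were higher became 1 with median-ratio scaling, 17 with quantile normalization, 20 with the range as a covariate, 8 among mice numbered 200 or above, 19 without the libraries apart and 0 with a log2 change of at least 1. Median-ratio scaling and quantile normalization each gave 1 lower, and leaving out each mouse gave 0 to 1 lower, with 1 without LAC_240 or ID6_230. The median log2 change became 0.031 with median-ratio scaling. From nulliparous to involution, the 17 that were higher became 0 with median-ratio scaling, 5 with quantile normalization, 3 with the range as a covariate and 0 among mice numbered 200 or above, without the libraries apart and with a log2 change of at least 1. The 1 lower became 0 in the last 4 of these settings. Leaving out each mouse gave 3 to 22 higher and 0 to 1 lower, with 0 without NUL_1, NUL_13 or ID6_209. The median log2 change became 0.024 with median-ratio scaling. By range of animal number, 7 higher became 4 without a filter, 2 with median-ratio scaling, 16 with quantile normalization and 3 without the libraries apart. The 2 lower became 1 without a filter or with quantile normalization, 4 with median-ratio scaling or the library set as a covariate, and 0 without the libraries apart. Both became 0 with a log2 change of at least 1. Leaving out each mouse gave 3 to 8 higher, with 3 without NUL_1, LAC_102, LAC_200 or LAC_36 and 4 without NUL_13, NUL_220, NUL_221 or NUL_227, and 0 to 3 lower, with 0 without NUL_1 or LAC_133, 1 without NUL_220, NUL_227, LAC_200 or LAC_213, and 3 without NUL_4. The median log2 change turned from 0.022 to -0.057 with median-ratio scaling, and that of the interaction 0.12. TPM gives no depth, so counting error in low members such as Rpl3l could not be set apart from the spread between mice.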
